A study of Mus musculus with 18 samples.

Results

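Apolipoproteins carry cholesterol and other lipids between the cells of the brain, and the same particles bind amyloid-β. Cells take them up through receptors of the low density lipoprotein receptor family, while a set of metalloproteases cuts amyloid-β outside cells and in their vesicles. In the mouse brain Apoe is made mainly by astrocytes and, after activation, by microglia. The genes described here are 9 of the 55487 in the deposited table: the apolipoproteins Apoe and Clu, the receptors Lrp1, Lrp8 and Vldlr, and the proteases Mme (neprilysin), Ide (insulin-degrading enzyme), Ece1 and Ece2 (endothelin-converting enzymes). They were chosen by name, each matched exactly 1 row, and all 9 passed the filter on low counts.

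Frontal cortex of 18 mice aged 9 to 10 months was sequenced as mRNA, with 3 females and 3 males of each of 3 genotypes. APP/PS1 mice carry a pair of human transgenes, APPswe among them, which give amyloid plaques. APP/PS1/FTnKO mice also carry floxed alleles of Fntb, which encodes the β subunit of protein farnesyltransferase, and a Cre recombinase under the CamKIIα promoter, which is active in forebrain neurons after birth, so glial cells keep the gene. By the study's methods the control groups came from the same crosses with floxed Fntb and without Cre, whereas the series description calls the WT mice C57BL/6J; the difference was not resolved here. Each sample is a separate mouse, and no pooling is described.

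WT mouse 19622 was set apart from all tests, which used the other 17 mice, and its values are given on their own. Total counts were 15925432 to 21030935 per mouse. Fntb, the deleted gene, lay between 7.84 and 14.7 library-size-scaled counts (normalized CPM) in APP/PS1/FTnKO mice, between 14.2 and 32.1 in APP/PS1 and between 14.1 and 32.2 in WT mice. The control mice fell apart within both groups, 7 of them (4 APP/PS1 and 3 WT) at 14.1 to 17.1 and the other 4 (APP/PS1 females 19553 and 19554, WT males 19718 and 19721) at 28.7 to 32.2. The groups overlapped: APP/PS1/FTnKO mouse 16974, at 14.7, lay above 3 APP/PS1 mice and 1 WT mouse, and the other 5 lay below all of both groups. This mouse had the highest Apoe, Clu and Ece2 of its group. The mRNA of cells outside the Cre's reach is part of each Fntb value. App, whose reads may hold those of the human transgene, was at 1492 to 1613 in WT and at 2117 to 3640 in the transgenic mice, with no overlap. The summed level of 6 excitatory neuron markers was 3810 to 6924 in the 17 mice and 448 in mouse 19622, while 4 cerebellar markers summed to at most 10.9 in the 17 mice and to 1931 in mouse 19622. RNA integrity numbers (RIN) were 8.5 to 8.8 for the 5 WT, 7.7 to 8.7 for the APP/PS1 and 7.6 to 8.7 for the APP/PS1/FTnKO mice, and 4 of 6 APP/PS1 and 2 of 6 APP/PS1/FTnKO mice lay below every WT mouse.

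The start regions of Apoe and Ece2 are shown because these genes gave the largest differences from WT among the members and deviated together from mouse to mouse. Both are from RefSeq on GRCm38.p6, 5′ to 3′ along the gene, with 250 bases before and 50 after the annotated start. Apoe lies on the minus strand at chr7:19699139-19699438, which is the most upstream of its 3 start windows, and Ece2 on the plus strand at chr16:20629601-20629900. Capitals mark matches, on either strand, to the box named for its letters CCAAT and to the GC box, GGGCGG.
Apoe: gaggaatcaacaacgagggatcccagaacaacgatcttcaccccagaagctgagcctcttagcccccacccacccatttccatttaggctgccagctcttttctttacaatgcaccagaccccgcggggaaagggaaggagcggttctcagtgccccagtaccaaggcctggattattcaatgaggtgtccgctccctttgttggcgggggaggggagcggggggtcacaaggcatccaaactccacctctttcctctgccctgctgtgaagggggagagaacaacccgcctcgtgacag
Ece2: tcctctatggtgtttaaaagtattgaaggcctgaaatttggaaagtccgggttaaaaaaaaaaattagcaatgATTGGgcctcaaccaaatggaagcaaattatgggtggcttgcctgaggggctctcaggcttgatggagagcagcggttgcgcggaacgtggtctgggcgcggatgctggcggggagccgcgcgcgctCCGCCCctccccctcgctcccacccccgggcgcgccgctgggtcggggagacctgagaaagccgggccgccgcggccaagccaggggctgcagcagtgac
The Ece2 window held 1 CCAAT match, at bases -177 to -173 from the start, and 1 GGGCGG match, at -50 to -45, both on the opposite strand and without overlap. Among 32851 mouse start windows of this length 37.4% held CCAAT and 35.7% held GGGCGG. The Apoe window held neither, and both windows lacked TATAAA (held by 13.6% of windows), AGGTCA (16.3%), TGANTCA (7.81%) and TTCNNNGAA (8.3%). Their G and C content was 57.7% for Apoe and 61.3% for Ece2. The table held 0 windows for Clu.

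Levels per length separated the members widely, and the carriers of lipid stood above the receptors and enzymes. On the scale of normalized CPM per kb of merged exon, the WT mean was 475 ± 47.0 (SD, n = 5) for Apoe, 204 ± 6.87 for Clu and 40.2 ± 1.55 for Lrp1. Ece1 was at 12.02 ± 0.886, Lrp8 at 10.7 ± 0.790 and Vldlr at 10.3 ± 0.455, and the mice overlapped between Ece1 and Lrp8 and between Lrp8 and Vldlr. Ide at 6.86 ± 0.297, Mme at 1.70 ± 0.371 and Ece2 at 0.911 ± 0.0996 followed, each with all its WT mice below those of the gene before it. The same order from Apoe to Ece1 and from Ide to Ece2 held for the means in the other genotypes, with Vldlr above Lrp8 in both, and there the mice of Mme and Ece2 also overlapped. The place of Ece2 depends on its length: over the 2173 exon bases it does not share with another gene model (a length chosen after seeing the data), it was at 2.14 ± 0.234 in WT, 2.53 ± 0.431 in APP/PS1 and 3.405 ± 0.599 in APP/PS1/FTnKO mice, above the mean of Mme in each, with overlapping mice in WT and APP/PS1. Mme and Ece2 are the members with the fewest reads: 214 to 644 counts per mouse for Mme and 74 to 182 for Ece2, against 15939 to 33207 for Apoe.

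**Figure D1:**
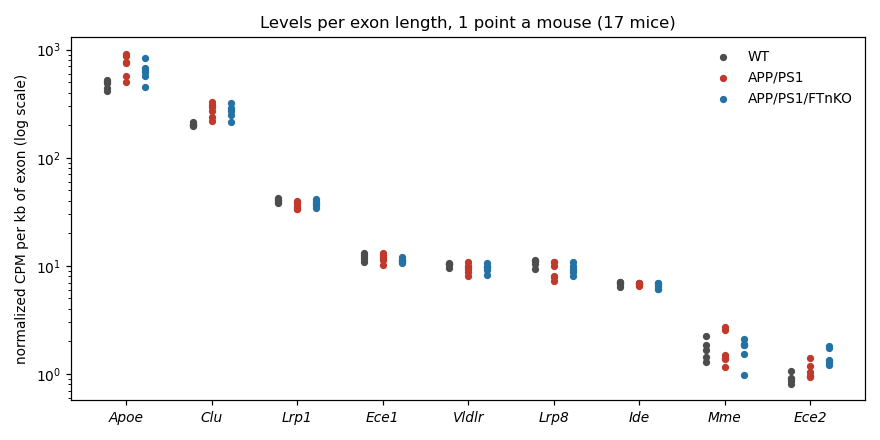
Level of each member in normalized CPM per kb of merged exon (log axis), with 1 point for each of 17 mice and colours for the genotypes. The WT means run from 475 for Apoe to 0.911 for Ece2 (over its whole exon length), and Ece1, Vldlr and Lrp8 form a group between Lrp1 and Ide.

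Of the 9 members only Clu passed the test between APP/PS1 and WT mice in edgeR (1 of 9, in a comparison in which 1.5% of 17414 genes were called). The median log2 fold change of the 9 was -0.02, and that of all genes tested was 0.00. Clu, or apolipoprotein J, is a secreted chaperone that binds amyloid-β. Its normalized CPM in WT mice was 678, 689, 692, 709 and 739, a spread of 3.37% (coefficient of variation). In APP/PS1 mice it ran from 744 to 1134 with a median of 980.2. Every APP/PS1 mouse lay above every WT mouse, at the nearest 743.7 against 738.6 CPM, and 2.4% of all genes had groups that did not overlap in this comparison. The log2 fold change was 0.44 ± 0.10 (SE), or 35.4% higher with a 95% interval of 16.3% to 57.7%, with an adjusted p of 0.0431. In bulk tissue more cells of a type and more RNA per cell cannot be told apart.

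Apoe, the main lipid carrier of the brain, had the larger difference and the larger spread. WT mice were at 885, 939.9, 1057, 1069 and 1130 CPM. APP/PS1 mice ran from 1076 to 1961, with a median of 1626. The lowest of them, mouse 19744 at 1076, lay below the highest WT mouse at 1130, and the other 5 lay above all WT mice. The log2 fold change was 0.61 ± 0.15, or 52.3% higher with an interval of 21.8% to 90.4%, and the adjusted p of 0.0560 did not pass. Both genes sat close to the threshold. The adjusted p of Clu stayed under it with mouse 16974 (0.0272) or 18973 (0.0194) of the APP/PS1/FTnKO group or mouse 19619 (0.0365) or 19744 (0.00805) of the APP/PS1 group left out, and with any of the other 13 mice left out in turn it was 0.0523 to 0.150. Apoe passed with the same 4 mice left out in turn, at 0.0333, 0.0280, 0.0390 and 0.0114, and did not with the other 13.

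**Figure D2:**
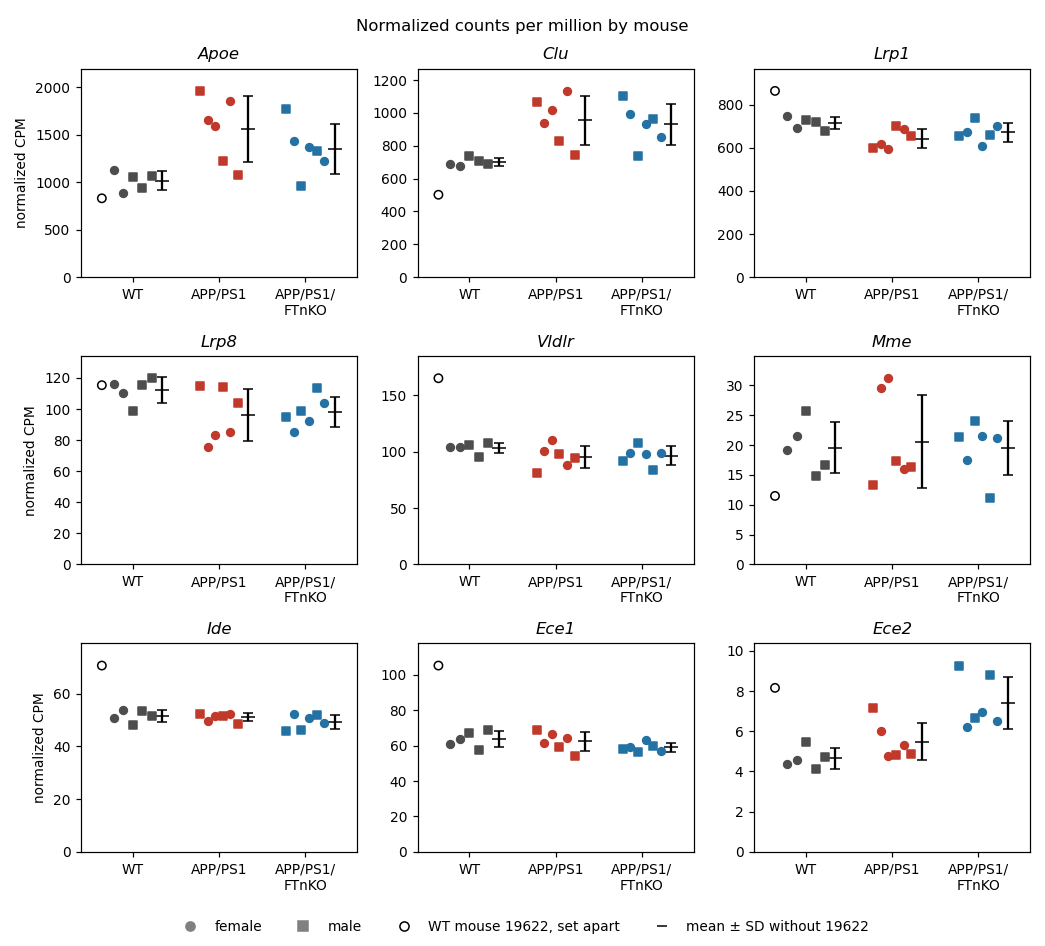
Normalized CPM of the 9 members in each mouse (circles female, squares male), with the mean ± SD of each genotype beside the points and WT mouse 19622 as an open circle. All 6 APP/PS1 mice lie above the 5 WT mice for Clu and all 6 APP/PS1/FTnKO mice above them for Ece2, whereas the genotypes overlap for the other members.

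Apoe and Clu were higher in the APP/PS1 mice with a low RIN than in the others of that genotype. In APP/PS1 the 4 mice with a RIN of 7.7 to 8.3 had 1593 to 1961 CPM of Apoe and the 2 with 8.6 and 8.7 had 1076 and 1220.5, and Clu divided in the same way, at 939.6 to 1134 against 744 and 827. In APP/PS1/FTnKO, male 16974 with the lowest RIN of all, 7.6, had the highest Apoe (1771) and Clu (1106) of its group. Over the 17 mice, after genotype and sex were taken out, the deviations of log2 CPM were lower at higher RIN for Apoe (Pearson's r = -0.776, permutation p = 0.0002; Spearman's rho = -0.680, p = 0.00317) and for Clu (r = -0.745, p = 0.00054; rho = -0.687, p = 0.00331). Over the 9 members tested, the adjusted p was 0.0018 and 0.00243 for r and 0.0149 for rho of both. Without the 2 mice whose RIN, after genotype and sex, lay farthest from the median, r was -0.568 and -0.583. With RIN as a covariate the log2 fold change between APP/PS1 and WT mice was 0.30 for Apoe (adjusted p = 0.441) and 0.25 for Clu (0.356). With only the mice of a RIN of at least 8 it was 0.46 (0.164) and 0.35 (0.177). RIN and genotype overlap in part in these mice, and whether RIN changes these 2 genes was not tested.

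**Figure D3:**
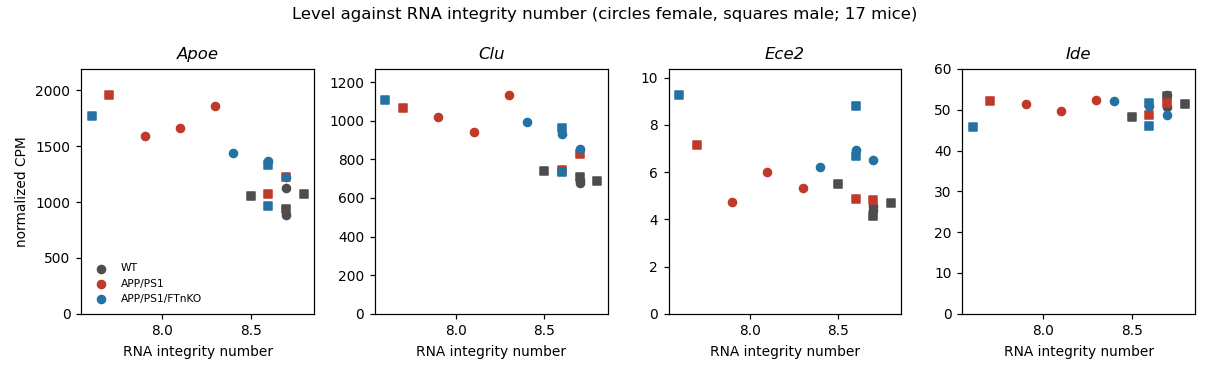
Normalized CPM of Apoe, Clu, Ece2 and Ide (vertical axes) against the RIN of each mouse's RNA, with colours for genotype and shapes for sex (17 mice). Apoe and Clu are high in the mice of low RIN, with r of -0.776 and -0.745 after genotype and sex, and Ide stays between 45.9 and 53.7.

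Markers of glial activation were higher in APP/PS1 mice, as were the means of Apoe and Clu. Of 8 microglial markers 4 rose in APP/PS1 against WT mice, where 1.5% of all genes were called. The summed level of the 8 was 377 to 427 CPM in WT and 500.2 to 923 in APP/PS1 mice. All 5 markers of plaque-associated microglia rose (sums of 7.45 to 13.1 against 41.1 to 166), as did 3 of 4 markers of reactive astrocytes (158 to 223 against 440.4 to 1797). None of the 8 general astrocyte markers was called, and their sums overlapped (4665 to 5626 in WT and 4570.2 to 5911 in APP/PS1). Of the markers in these lists none was at 0 in all mice of a genotype. Mouse 16975 had the highest sum of both the microglial and the reactive astrocyte list as well as the highest Apoe, but the plaque-associated sum was highest in mouse 19554 (166, against 125 in 16975) and Clu in mouse 19723 (1134, against 1068). Mouse 19744 had the lowest value of the APP/PS1 group for these 3 lists and for both genes. WT mouse 19622, which was set apart, had a microglial sum of 224, below the other WT mice. Its plaque-associated and reactive astrocyte sums of 58.4 and 585 lay within the APP/PS1 range, whereas its Apoe and Clu lay below all other mice. How much of the Apoe and Clu difference goes with these cells was not tested.

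The comparison of APP/PS1/FTnKO with APP/PS1 mice addresses what the loss of farnesyltransferase in neurons changes in mice with amyloid, and 0 of the 9 members were called in it by edgeR, where 0.327% of all genes were. At an unadjusted p under 0.05, which 11.5% of all genes had, only Ece2 passed, and DESeq2 and limma-voom called 0 members as well. No member had groups that did not overlap, as 0.97% of all genes had. Apoe ran from 961 to 1771 CPM in APP/PS1/FTnKO mice with a median of 1351, and 5 of these 6 mice lay within the range of the APP/PS1 group. Its log2 fold change was -0.21 ± 0.14, an interval of -29.7% to 6.84%, with an adjusted p of 0.632. It was -0.32 without male 16974 of the APP/PS1/FTnKO group, -0.10 without male 16975 of the APP/PS1 group and -0.0833 with RIN as a covariate, and was not called in any of these settings. Clu ran from 737 to 1106 with a median of 947, and its log2 fold change was -0.04 ± 0.10, an interval of -15.5% to 12.6%. The intervals thus leave room for a lower or a higher level of both genes. Of the markers of microglia, plaque-associated microglia and reactive astrocytes 0 of 8, 0 of 5 and 0 of 4 were called in this comparison, and 0 of them had a log2 fold change above 0 (medians of -0.26, -0.32 and -0.23). Apoe had the same sign, and the part of these cells in its value was not tested.

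Against WT, which serves as the control in the comparison of APP/PS1 too, 2 of 9 members were called in APP/PS1/FTnKO mice, Clu and Ece2, where 3.87% of all genes were and 22.1% had an unadjusted p under 0.05. Clu was 32.1% higher (interval 13.5% to 53.7%, log2 fold change 0.40 ± 0.10, adjusted p = 0.0397), with 5 of 6 mice above all WT mice and male 18973 at 737 within the WT range. The adjusted p of Clu was 0.0521 to 0.108 when any of 9 mice was left out: 16974, 18943, 19394 or 19720 of the APP/PS1/FTnKO group, 18944, 19053, 19718 or 19721 of the WT group, or 19553 of the APP/PS1 group. It was 0.0119 to 0.0495 with each of the other 8 left out. With RIN as a covariate it was 0.0603 and with mice of a RIN of at least 8 it was 0.0869. Apoe was 0.40 ± 0.15 higher on the log2 scale (adjusted p = 0.136). It was 0.22 with RIN as a covariate (0.299) and 0.28 without mouse 16974 (0.323), and was called with no filter on low counts (0.0329). The same male 18973 had its lowest value, 961, of the 6. That mouse had also the lowest sum of microglial markers (411) and of reactive astrocyte markers (405) in its group. In this comparison 2 of 8 microglial (median log2 fold change 0.39), 5 of 5 plaque-associated (4.74) and 3 of 4 reactive astrocyte markers (1.72) rose, with sums of 411 to 670, 25.2 to 114 and 405 to 1474 CPM in APP/PS1/FTnKO mice. Their part in the Clu and Apoe values was not tested.

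**Figure D4:**
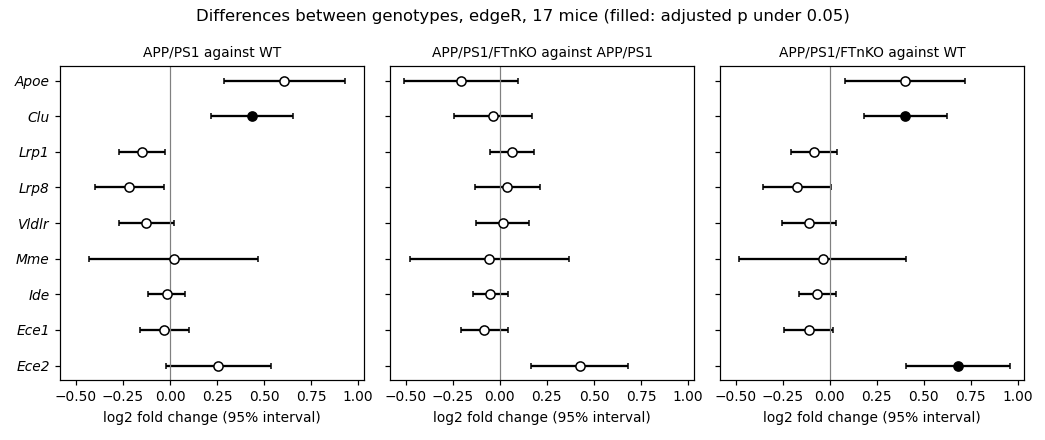
Log2 fold change of each member with its 95% interval in 3 comparisons (edgeR, 17 mice), where filled points passed an adjusted p of 0.05. Clu passed in both comparisons with WT and Ece2 in APP/PS1/FTnKO against WT, and 0 members passed between the transgenic groups.

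The 3 receptors had lower means in both transgenic groups than in WT and none passed the test. Lrp1, a large endocytic receptor that takes up Apoe particles and amyloid-β, was at 679, 692, 719.7, 727 and 747 CPM in WT and at 596 to 703, with a median of 637, in APP/PS1 mice. Only mice 19619 and 19723 of the APP/PS1 group reached into the WT range. The log2 fold change was -0.15 ± 0.06 with an unadjusted p of 0.0208 and an adjusted p of 0.266 in edgeR; 14% of all genes had an unadjusted p under 0.05 in this comparison. In APP/PS1/FTnKO mice Lrp1 ran from 606 to 736 with a median of 668, which gave 0.06 ± 0.06 against APP/PS1 and -0.08 ± 0.06 against WT. With RIN as a covariate the difference between APP/PS1 and WT mice was closer to 0, within the range of -0.19 to -0.09 over 11 other settings, and was called in none of them.

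Lrp8, a receptor for Apoe and for the guidance protein reelin, divided the APP/PS1 mice by sex. The split was picked out from all members and genotypes, and how many of all genes divide so was not counted. The 3 APP/PS1 females were at 75.8, 83.4 and 85.1 CPM and the 3 males at 104, 114 and 115. In WT mice the 2 females were at 110.3 and 116 and the 3 males at 98.4, 116 and 119.8, so the APP/PS1 females lay below all WT mice and the males did not. The sum of the 4 striatum markers Drd1, Drd2, Ppp1r1b and Adora2a also divided the APP/PS1 mice by sex, at 706, 941 and 953 CPM in females and 383, 452 and 583 in males, and its part in the Lrp8 values was not tested. In APP/PS1/FTnKO mice females (85.4, 92.5 and 104) and males (94.7, 98.4 and 114) overlapped. The female minus male difference in the APP/PS1 effect was -0.47 ± 0.14 on the log2 scale. Its unadjusted p was 0.00381 and its adjusted p 0.9998 in edgeR. In this test of the interaction 0 genes of 17414 passed. An unadjusted p under 0.05 was found for 705 genes, fewer than chance alone would give. Over both sexes Lrp8 was -0.22 ± 0.09 in APP/PS1 against WT (adjusted p = 0.272), 0.04 ± 0.08 in APP/PS1/FTnKO against APP/PS1 and -0.18 ± 0.09 in APP/PS1/FTnKO against WT (0.241). Over 11 other settings the value in APP/PS1 against WT ran from -0.24 to -0.14, with the highest adjusted p, 0.767, with RIN as a covariate. The deviations of Lrp8 had an r of 0.397 (permutation p = 0.113) and a rho of 0.512 (p = 0.0368, adjusted 0.0781) with RIN.

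Vldlr, the other reelin receptor, varied less and overlapped throughout. It was at 95.6, 104, 104, 106 and 107 CPM in WT, from 80.9 to 109.9 with a median of 96.2 in APP/PS1, and from 83.4 to 108 with a median of 98.1 in APP/PS1/FTnKO mice. The log2 fold changes were -0.12 ± 0.07, 0.01 ± 0.07 and -0.11 ± 0.07 in APP/PS1 against WT, APP/PS1/FTnKO against APP/PS1 and APP/PS1/FTnKO against WT, with adjusted p of 0.434, 0.961 and 0.365. Antisense transcripts are annotated over Lrp1, Lrp8 and Ece1 and share 0 exon bases with them; that of Lrp8, Lrp8os2, held 1043 counts in all mice together.

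Of the 4 proteases Ide had the lowest coefficient of variation in WT and APP/PS1 mice, Ece1 the lowest in APP/PS1/FTnKO mice (4.29%), and Mme the highest in all 3 genotypes. Ide, a cytosolic and secreted enzyme that cuts insulin and amyloid-β, was at 48.2, 50.7, 51.5, 53.3 and 53.7 CPM in WT. APP/PS1 mice ran from 48.6 to 52.4 and APP/PS1/FTnKO mice from 45.9 to 52.3. Its coefficient of variation was 4.33%, 2.98% and 5.68%, where counting error alone gives 3.27%, 3.34% and 3.24%. The log2 fold change was -0.02 ± 0.05 in APP/PS1 and -0.07 ± 0.05 in APP/PS1/FTnKO against WT, with intervals of -7.73% to 5.86% and -10.9% to 2.23%. The 3 genotypes thus overlapped in a narrow band.

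Mme encodes neprilysin, a membrane protease that is a main amyloid-β-degrading enzyme of the brain. It was at 14.8, 16.6, 19.1, 21.6 and 25.7 CPM in WT mice. In APP/PS1 mice 19554 and 19553, both female, were at 31.2 and 29.6 and the other 4 between 13.3 and 17.3, a coefficient of variation of 37.5% against 5.22% from counting. In APP/PS1/FTnKO mice it ran from 11.2 to 24.1 with a median of 21.3. The log2 fold changes were 0.02 ± 0.21, -0.06 ± 0.20 and -0.04 ± 0.21 in the order above, so that changes from -25.7% to 38.4% lay within the interval for APP/PS1 against WT. Markers of the striatum, a region beneath the cortex, were highest and lowest in the mice with the highest and lowest Mme. Their sum (4 genes) was 953 CPM in mouse 19554 and 941 in 19553, the highest of the 17 mice, and 324 in male 19720, the lowest, which had also the lowest Mme, 11.2. The other 14 mice lay between 369 and 767, and none of the 4 genes was at 0 in all mice of a genotype. Among them APP/PS1 mouse 19723 had a high sum of 706 but a low Mme of 16.0, and no correlation of the sum with Mme was computed. Mouse 19554 alone had a high sum of choroid plexus markers, 465 CPM, against 5.95 to 77.2 in the other 16. The part of these tissues in the spread of Mme was not tested.

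Ece1, which acts at the cell surface and in endosomes, did not pass in any comparison. It was at 57.4, 60.9, 63.9, 67.2 and 69.1 CPM in WT. APP/PS1 mice ran from 54.4 to 69.1 and APP/PS1/FTnKO mice from 56.2 to 63.3. The log2 fold change was -0.03 ± 0.06, -0.08 ± 0.06 and -0.11 ± 0.06 in the same order, with adjusted p of 0.874, 0.645 and 0.302. All 6 APP/PS1/FTnKO mice lay within the range of the APP/PS1 group.

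Ece2, a neuronal relative of Ece1 that works at acidic pH, was the member with the clearest difference in APP/PS1/FTnKO mice. WT mice were at 4.15, 4.38, 4.56, 4.70 and 5.49 CPM, or 74 to 91 counts. APP/PS1 mice ran from 4.75 to 7.14 with a median of 5.10, and APP/PS1/FTnKO mice from 6.20 to 9.27 with a median of 6.80, or 116 to 182 counts. All 6 APP/PS1/FTnKO mice lay above the 5 WT mice (5.6% of all genes had groups that did not overlap in this comparison), and mouse 16975 of the APP/PS1 group reached into their range. Against WT the level was 60.4% higher (interval 32.5% to 94.1%, log2 fold change 0.68 ± 0.13, adjusted p = 0.00958). The adjusted p of Ece2 stayed between 0.00529 and 0.0329 with each of the 17 mice left out, and was 0.0156 with RIN as a covariate. With WT mouse 19622, at 8.16, in the fit the log2 fold change was 0.49 and the adjusted p 0.134.

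Against APP/PS1 the difference of Ece2 was 0.43 ± 0.12 on the log2 scale, or 34.3% higher (interval 12.3% to 60.6%), with an unadjusted p of 0.00280 and an adjusted p of 0.166. With RIN as a covariate it was 0.51 with an adjusted p of 0.0291, the only setting of 11 in which a member was called between the transgenic groups. APP/PS1 against WT gave 0.26 ± 0.13 (adjusted p = 0.399), which became 0.0706 with RIN as a covariate (0.935) and 0.0676 with all 18 mice. Ece2, like Apoe, deviated with RIN (r = -0.667, permutation p = 0.00261; rho = -0.631, p = 0.00794; r = -0.451 without the 2 farthest mice; adjusted p of 0.00783 and 0.0238 over the 9 members), and males 16974 and 16975, of the lowest RIN, were the highest of their groups. Markers of excitatory neurons, which express the Cre, summed to 5129 to 6924 CPM for WT, 4611 to 6684 for APP/PS1 and 3810 to 5568 for APP/PS1/FTnKO mice, and in APP/PS1/FTnKO against WT mice 0 of the 6 had a log2 fold change above 0 (median -0.24) and 1, Slc17a7, was called lower. The part of these markers in the Ece2 difference was not tested.

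The annotation of Ece2 overlaps that of another gene model. The gene lies on chromosome 16 at 20629828 to 20646485 (GRCm38, plus strand) and 2937 of its 5110 exon bases (57.5%) are shared with Gm49333, a model on the same strand that joins exons of Ece2 to those of its upstream neighbour Eef1akmt4. Gm49333 had 0 counts in all 18 mice. All its exon bases lie in Ece2 or Eef1akmt4, and reads that fall on bases shared by genes may not have been counted, by a setting that the sources do not state. The Ece2 count may thus rest on the 2173 bases that are its own. Eef1akmt4, a lysine methyltransferase gene that shares 495 exon bases with the same model and was picked after its values were seen, had 4 to 7 counts in the 5 WT mice, against 6 to 13 for APP/PS1 and 11 to 19 for APP/PS1/FTnKO. All these WT values lay under the filter's minimum of 10 counts, so the gene was tested only through the transgenic mice, where it was higher. Of 7 genes tested within 50 kb of Ece2, Eef1akmt4 alone was called by edgeR in APP/PS1/FTnKO against WT mice (log2 fold change 1.17 ± 0.27, adjusted p = 0.0236). In that comparison 3.87% of all genes were called, and 1 of 8 tested within the same distance of Lrp1. In the other comparisons 0 of the 7 were called.

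Sex had no called effect on the members (0 of 9, where 0.0689% of 17414 genes were called). The lowest unadjusted p was that of Lrp8, 0.0119 (log2 fold change of females against males -0.20 ± 0.07, adjusted p = 0.592). Apoe was 0.08 ± 0.12 and Clu 0.06 ± 0.08 higher in females, both smaller than their standard errors. In the test of the interaction 0 of 9 members passed in any of the 3 comparisons.

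WT mouse 19622 stood apart in the members too, as it did for 55.4% of all genes, for which it lay outside the range of the other 17 mice. It was below all of them for Apoe (830.2 CPM) and Clu (502) and above all of them for Lrp1 (863), Vldlr (165), Ide (70.7) and Ece1 (105). Lrp8 (115), Mme (11.5) and Ece2 (8.16) were within the range. Its Ece1 was 165% and its Clu 71.6% of the mean of the other WT mice.

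Of 36 pairs of members 6 were correlated over the mice within genotype and sex, with an adjusted p under 0.05 for both r and rho. How many pairs of all genes are so correlated was not counted. The 2 farthest mice, left out below, are those whose deviation for the first-named gene lay farthest from its median. Apoe and Clu were the closest (r = 0.928 over 17 mice, permutation p = 1e-05, the smallest 100000 permutations can give; rho = 0.843, p = 1e-05; adjusted p = 0.00036 for both; r = 0.877 without the 2 farthest mice). Apoe and Ece2 followed one another as well (r = 0.748, permutation p = 0.00057, adjusted 0.00576; rho = 0.755, p = 0.00075, adjusted 0.0127; r = 0.670 without the 2 farthest). Clu and Ece2 did too (r = 0.657, permutation p = 0.00422, adjusted 0.0304; rho = 0.630, p = 0.00809, adjusted 0.0461; r = 0.538 without the 2 farthest), as did Apoe and Ece1 (r = 0.612, permutation p = 0.00921, adjusted 0.0474; rho = 0.613, p = 0.0102, adjusted 0.0461; r = 0.463 without the 2 farthest). Vldlr and Mme went together (r = 0.790, permutation p = 0.00028, adjusted 0.00504; rho = 0.745, p = 0.00106, adjusted 0.0127; r = 0.736 without the 2 farthest). Mme and Ide went in opposite directions (r = -0.755, permutation p = 0.00064, adjusted 0.00576; rho = -0.701, p = 0.00246, adjusted 0.0221; r = -0.649 without the 2 farthest). Another 3 pairs passed on 1 measure: Lrp8 and Mme on r (-0.627, adjusted permutation p = 0.0474), and Clu with Ece1 (0.654, 0.0402) and Lrp1 with Ece1 (-0.618, 0.0461) on rho. These pairs share their libraries and RIN, and their relation beyond RIN was not tested. Vldlr, Mme and Ide showed no clear relation with RIN (r of 0.195, -0.269 and 0.211, permutation p of 0.455, 0.302 and 0.423). The part of the striatum markers in their pairs was not tested either.

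Across all 17413 other tested genes, the pattern of Apoe was most like that of Dbi (r = 0.951) and Ntsr2 (0.949), and that of Clu like Npc2 (0.967) and Pbxip1 (0.942), over the same deviations of 17 mice and as a description. Mme was most like Gpr155 (0.969) and Spock3 (0.953), Vldlr like Srp72 (0.939) and Rgs2 (0.936), and Lrp8 like Cpne6 (0.924) and Runx2 (0.894). Ece2 was most like Ndufb11 (0.921) and Hmg20b (0.909), Lrp1 like Tnrc18 (0.887) and Gm15559 (0.845), Ece1 like Elovl5 (0.880) and Rps6ka1 (0.869), and Ide like Rbm5 (0.856) and Gm6710 (0.852). Ide, Lrp1 and Ece1 thus had the loosest nearest neighbours.

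The wider pathway was described by 80 further genes of lipid loading, uptake, degradation and its inhibitors. Of 71 tested, 9 rose and 0 fell in APP/PS1 against WT mice (12.7%, where 1.32% of all genes rose and 0.178% fell), and their median log2 fold change was 0.07 against 0.00 for all genes. With RIN as a covariate 5 were called, and with a minimum count of 50 the number was 7. The lists were chosen with results of these data known. Of 15 tested proteases 3 rose, 7 of the 15 had a log2 fold change above 0, and their median was -0.0027. Ctsd (cathepsin D) went from 167 ± 9.06 to 453 ± 106 CPM (log2 fold change 1.38 ± 0.16), Ctsb (cathepsin B) from 567.8 ± 25.2 to 719 ± 71.5 (0.32 ± 0.07) and Plau (urokinase) from 2.58 ± 0.417 to 8.51 ± 2.54 (1.69 ± 0.25). Of 9 tested protease inhibitors A2m (1.69 ± 0.25), Serpina3n (1.66 ± 0.26) and the weakly expressed Timp1 (1.41 ± 0.34) rose. The uptake receptors Trem2 (12.3 ± 1.54 to 66.5 ± 21.7 CPM, 2.37 ± 0.26) and Msr1 (2.32 ± 0.47), both of microglia, rose, as did Lpl, the lipase of lipoproteins (0.44 ± 0.08). Msr1 (0.133 to 0.728 CPM) and Timp1 (0.220 to 0.609) were so low in WT that they passed the low-count filter only through transgenic mice. The adjusted p of the 9 called genes in edgeR was 9.59e-05 to 0.0430. Of the 18 other lipoprotein receptors none was called.

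**Figure D5:**
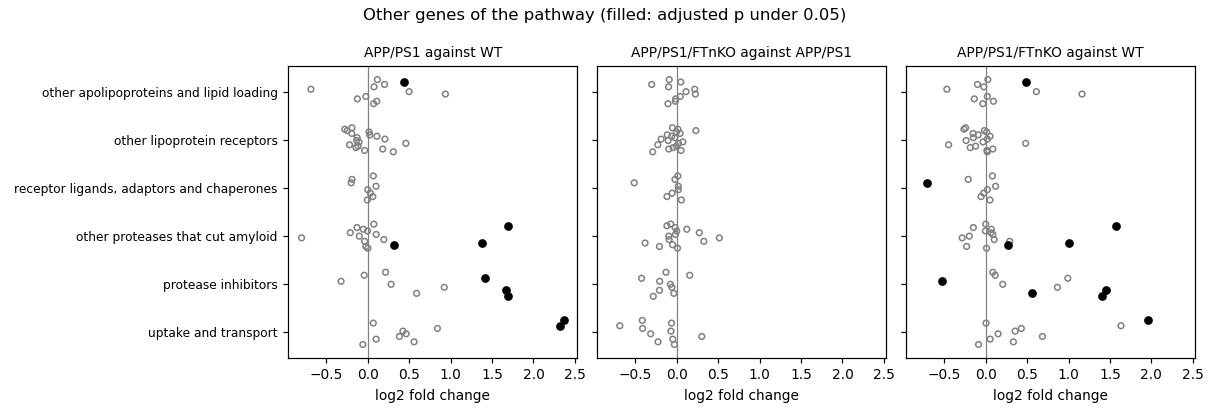
Log2 fold change of 71 further pathway genes by list in 3 comparisons (edgeR), with filled points for an adjusted p under 0.05. The 9 filled points of APP/PS1 against WT lie to the right, between 0.32 and 2.37, and 0 are filled between the transgenic groups.

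When the transgenic groups were compared with each other, 0 of the 71 were called in edgeR, where 0.327% of all genes were, so few that the count says nothing particular about these genes. Their median log2 fold change was -0.05, and that of all genes was 0.00. In the lists of lipid loading, proteases, inhibitors and transport the lowest p belonged to Lcat (-0.30 ± 0.12), Ctsd (-0.38 ± 0.14), Timp2 (0.16 ± 0.05) and Aqp4 (-0.31 ± 0.11), with adjusted p of 0.256 to 0.358. Against WT 10 of 71 were called in APP/PS1/FTnKO mice (14.1%), 8 higher and 2 lower, where 2.22% and 1.65% of all genes were. The number was 4 with all 18 mice, and 6 when mouse 16974 or 18943 of the APP/PS1/FTnKO group or 18944, 19053 or 19721 of the WT group was left out. Higher were Trem2 (1.95 ± 0.26), Ctsd (1.002 ± 0.157), Plau (1.57 ± 0.25), Ctsb (0.27 ± 0.06), A2m (1.41 ± 0.25), Serpina3n (1.46 ± 0.26), Lpl (0.49 ± 0.08) and, named beyond the rule to complete the count, Cst3 (0.56 ± 0.15, adjusted p = 0.0497). Among the lower was Serpini1, the neuronal inhibitor neuroserpin (-0.53 ± 0.12, adjusted p = 0.0215).

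The genes beside Apoe gave no call. Of the genes listed around it 6 were tested and 0 were called in any comparison. Of all genes 1.5% were called in APP/PS1 against WT, 0.327% between the transgenic groups and 3.87% in APP/PS1/FTnKO against WT. With so few genes and such shares the count says nothing particular about this locus. Tomm40, the next gene upstream, was at 59.0 ± 1.44 CPM in WT, 56.5 ± 2.52 in APP/PS1 and 58.4 ± 4.09 in APP/PS1/FTnKO mice. Apoc1 was the lowest by p in APP/PS1/FTnKO against WT mice (0.61 ± 0.47, adjusted p = 0.468), at under 1 CPM in each group's mean.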

How the data were processed

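The authors made stranded mRNA libraries, trimmed the paired reads (Trimmomatic 0.33), mapped them to GRCm38 (HISAT2 2.1.0) and counted reads per gene with featureCounts (version, annotation and settings not given in the sources used here). These deposited values are raw counts per gene for 18 mice, and 0 columns were unused. Counts were tested with edgeR 4.0.16 under R 4.3.3 (TMM, filterByExpr by genotype at a minimum of 10, the quasi-likelihood test, genotype and sex as additive terms, 17 mice) and Benjamini-Hochberg adjustment over 17414 genes at 0.05. The study's methods excluded 1 WT sample as an outlier without naming it. Here WT mouse 19622 was left out, a choice made with earlier results of these data known, and was scaled to the same reference. CPM were divided by TMM library sizes, exon lengths and positions came from a GRCm38 annotation, and likeness used log2 CPM with a prior count of 2. Other settings tried were limma-voom (limma 3.58.1), DESeq2 1.42.0, RLE, other filters, robust spread, no sex term, RIN, 2 genotypes, all 18 mice and each mouse left out. The scripts were tested on simulated data.

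The members and lists were chosen with earlier results of these data known. Named were the members, Fntb, App and Prnp as checks of the labels, up to 3 called genes of each list by p or else the lowest p, and the 2 genes most like each member. Some genes that this rule names are counted but not reported by name here. Prnp, which the transgene's promoter comes from, was at 658 to 768 CPM in WT and 1841 to 2632 in transgenic mice.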

Additional observations from a re-analysis of the deposited data

Results flagged for a closer look

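A search for a value far from the rest of its group covered 45 groups of 5 or 6 mice (chance alone gives about 1 such group in 20). Of these groups 9 held WT mouse 19622, put back among the other WT mice though it was already set apart as an outlier. All 6 groups found were among these 9, so they describe again a mouse known to differ and are no separate result. Its normalized CPM was 502 for Clu, against 678 to 739 in the others, and 863 for Lrp1, against 679 to 747. It was 165 for Vldlr, against 95.6 to 107, and 70.7 for Ide, against 48.2 to 53.7. It was 105 for Ece1, against 57.4 to 69.1, and 8.16 for Ece2, against 4.15 to 5.49. Without this mouse no member had such a value in any genotype.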

How the results depend on the processing

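Between APP/PS1 and WT mice the members called numbered 2 (Apoe and Clu) with all 18 mice, DESeq2, no low-count filter or no sex term, 0 with limma-voom, RIN as a covariate or a RIN of at least 8, and 0 to 2 with a mouse left out. Between the transgenic groups the number was 1 (Ece2) with RIN as a covariate and 0 with each mouse left out. For APP/PS1/FTnKO against WT it was 3 (Apoe, Clu and Ece2) with no low-count filter, 0 with all 18 mice, 1 (Ece2) with RIN as a covariate or a RIN of at least 8, and 1 to 2 with a mouse left out. Pathway genes called were 5 with RIN as a covariate in APP/PS1 against WT (6 to 12 with a mouse left out) and 4 with all 18 mice in APP/PS1/FTnKO against WT (6 to 12).

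Values near 0 changed sign. In APP/PS1 against WT mice Mme became -0.13 (RIN as a covariate), -0.0168 (a RIN of at least 8) and -0.0012 (2 genotypes only), and Ide 0.00048 (RIN as a covariate). Between the transgenic groups RIN as a covariate gave 0.0415 for Clu and 0.0102 for Mme, and all 18 mice gave 0.0939 for Mme in APP/PS1/FTnKO against WT. With a mouse left out, Mme ran from -0.0946 to 0.17, Ide from -0.0373 to 0.0029 and Ece1 from -0.0691 to 0.0105 in APP/PS1 against WT. In APP/PS1/FTnKO against APP/PS1, Clu ran from -0.10 to 0.0209, Lrp8 from -0.0081 to 0.0768, Vldlr from -0.0324 to 0.0533 and Mme from -0.17 to 0.0665, and in APP/PS1/FTnKO against WT Mme ran from -0.16 to 0.12. The cause was not tested.

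Counts over all genes moved more: 261 in APP/PS1 against WT became 468 (DESeq2), 452 (no filter), 84 (RIN as a covariate), 120 (a RIN of at least 8) and 124 to 465 (a mouse left out). The 57 between the transgenic groups became 2 (all 18 mice), 253 (DESeq2), 104 (no filter), 261 (RIN as a covariate), 14 (a RIN of at least 8), 5 (2 genotypes only) and 10 to 81. The 674 in APP/PS1/FTnKO against WT became 261 (all 18 mice), 1321 (DESeq2), 388 (RIN as a covariate), 368 (a RIN of at least 8) and 206 to 987, and the 12 of sex 31 (DESeq2) and 50 (no filter). Counting error limits Ece2 (8.38% to 10.9% per mouse) and Mme more than the other members. No paired analysis was made because the labels name no litter and give no number that is shared across genotypes. The study's methods describe littermates, and some mouse numbers are consecutive across genotypes, such as 16974 (APP/PS1/FTnKO) and 16975 (APP/PS1). Whether such mice share a litter is not stated.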
